A study of Drosophila melanogaster with 3 samples.

Results

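The 10 genes described here encode core proteins of the Polycomb group: ph-p, ph-d, Pc, Psc and Sce of Polycomb repressive complex 1 (PRC1), its associated protein gene Scm, E(z), Su(z)12 and esc of PRC2, and pho of the Pho repressive complex. They were taken by name, with no threshold on a measured value but with earlier results of these data known, out of 13945 protein-coding genes on the 6 major chromosome arms of Drosophila melanogaster. Tagged CG6765 was precipitated from sonicated chromatin and the attached DNA sequenced (ChIP-seq), and the deposited peak lists were used. The descriptions name an anti-GFP antibody, while another label gives the antibody as CG6765. All 3 biological replicates belong to 1 group: whole embryos of mixed sex, 0 to 24 h old, from a transgenic line that stably expresses CG6765 with a C-terminal eGFP tag. No comparison group was analysed here, and the sources used here do not state what drives the transgene or whether an untagged copy remains. Embryos of all these ages and all tissues were pooled, so fewer bound cells and less binding per cell cannot be told apart.

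Polycomb group proteins keep developmental genes, among them the Hox genes, silent once their early expression pattern has been set. PRC2 methylates histone H3 through its catalytic subunit E(z), PRC1 binds that mark through Pc and modifies histone H2A through Sce, and Pho binds DNA at Polycomb response elements, the sequences from which silencing spreads in the fly. ph-p and ph-d are tandem copies of the polyhomeotic gene on chromosome X, and Polycomb proteins are themselves known to bind the ph genes. CG6765 was profiled here, not a Polycomb protein, so the values below say where tagged CG6765 was recovered at these genes.

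A summit is the position of highest signal in a peak. The authors deposited 30000 candidate peaks per replicate and for the pooled replicates on assembly dm6, labelled as peaks and background, and a list of 3816 thresholded peaks that passed a reproducibility step. These were exactly the 3816 pooled candidates of highest signal. The signal has no stated unit and orders peaks only within a list. The thresholded peaks had a median signal of 193 (lowest 135, highest 2699). Ranks are given as positions in each 30000-peak list, where 1 is the strongest. The tagged gene CG6765 itself carried a thresholded summit at a start site with rank 501. The number of reads per replicate is unknown from these lists.

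The sequences that carry the main result are those under the 5 strongest summits in the gene bodies and 2 kb upstream, which lay at ph-p, ph-d and E(z). They are shown 5′ to 3′ on the minus strand, along which both ph genes and E(z) are transcribed, from the RefSeq copy of the Release 6 (dm6) genome. Each covers up to 101 bp around the summit and was trimmed to hold no more than 30 bases of a UTR. Capitals mark the longest unbroken run of A and T bases in what is printed.
ph-p strongest summit, 5′ UTR, chrX:2137943-2137972: aacttaaaacTTAATAAATcaactcaatac
ph-d upstream summit, chrX:2124113-2124213: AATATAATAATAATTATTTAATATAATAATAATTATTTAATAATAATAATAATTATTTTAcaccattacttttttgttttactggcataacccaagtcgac
ph-p summit upstream of an inner start, intron, chrX:2137252-2137352: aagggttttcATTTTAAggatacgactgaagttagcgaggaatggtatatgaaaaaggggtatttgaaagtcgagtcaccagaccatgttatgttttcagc
E(z) start-site summit, chr3L:10638016-10638071: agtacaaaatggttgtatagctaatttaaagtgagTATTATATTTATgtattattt
ph-p summit deeper in the gene, intron, chrX:2135321-2135421: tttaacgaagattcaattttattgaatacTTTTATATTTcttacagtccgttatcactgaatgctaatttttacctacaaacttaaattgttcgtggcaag

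Within the gene bodies and 2 kb upstream, CG6765 was recovered most strongly at the ph genes and at the start of E(z). It was recovered weakly or not at all at most of the other members. Beyond that limit, a summit 4227 bp upstream of Psc, nearest to a start of lncRNA:CR44339, had a signal of 863. A thresholded summit lay in the gene body or the 2 kb upstream of 5 of the 10 genes (50.0%, Wilson 95% interval 23.7 to 76.3): ph-p, ph-d, Psc, E(z) and Su(z)12. The same held for 24.6% of all protein-coding genes, and for 28.0% of the 7431 whose window was within the members' range of lengths. The interval covers the counting of genes only, and both backgrounds lie inside it. It treats the genes as independent draws, though they were taken by name and ph-p and ph-d are tandem copies. Within 500 bp of one of the gene's own start sites, 2 of 10 had a thresholded summit, ph-p and E(z), against 17.0% of protein-coding genes, so at start sites the members were near the background. Any pooled candidate was found in the window of 8 of 10 members against 66.3% of protein-coding genes, and within 500 bp of a start site of 6 of 10 against 49.3%.

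**Figure D1:**
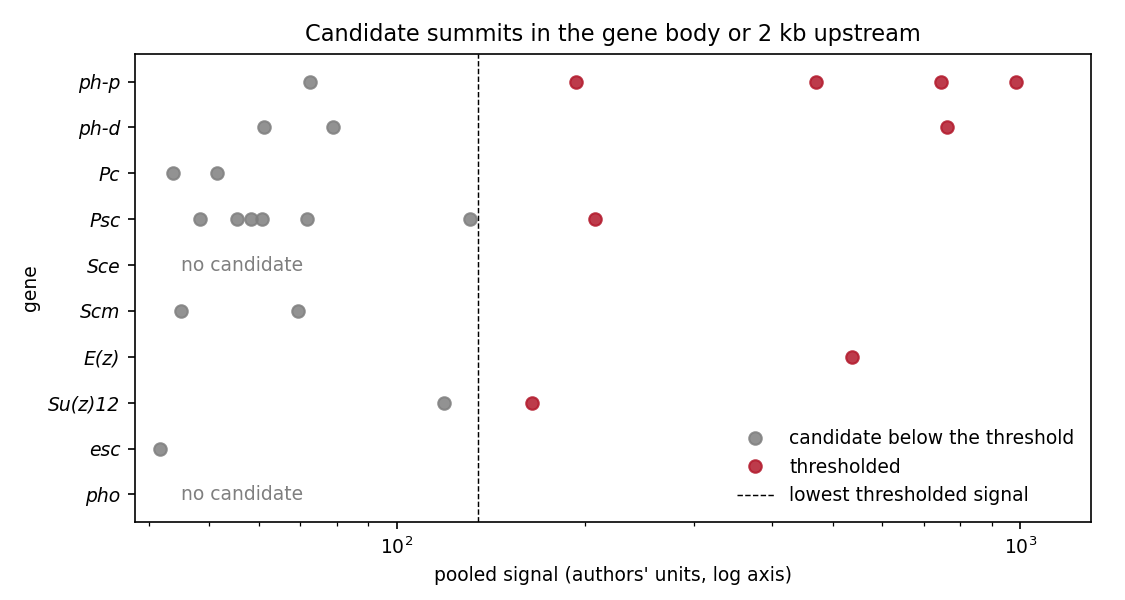
Pooled signal (authors' units, log axis) of each candidate summit in the gene body or 2 kb upstream of the 10 genes, in red where thresholded and in grey below the threshold, with the lowest thresholded signal of 135 as a dashed line. The 5 highest signals, from 984 down to 470.1, are at ph-p, ph-d and E(z), and Sce and pho have no candidate.

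The 8 thresholded summits were unevenly spread: 5 lay at ph-p and ph-d and 3 at the other genes. Member windows together covered 92.6 kb and held 0.864 thresholded summits per 10 kb, against 0.356 for the windows of all protein-coding genes. The ph windows alone held 2.11 per 10 kb and those of the other 8 members 0.436. Candidates of any strength were no denser at the members, with 2.48 per 10 kb against 2.57 for all protein-coding windows. Every one of the 8 had a summit within 100 bp in the lists of all 3 replicates, as did 77.3% of all thresholded summits, while none of the 15 weaker candidates at the members did (8 were found in 2 replicates and 7 in 1). The share of all other candidates found in every replicate is not available here, so the weaker member candidates cannot be set beside it. The pooled list was made from these replicates, so strength and recurrence are not independent measures.

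ph-p encodes the proximal Polyhomeotic protein, a PRC1 subunit that polymerises through its SAM domain. It held 4 thresholded summits in its 12162 bp (FBgn0004861; X, 2126210 to 2138371, minus strand), a number reached by 161 protein-coding genes (1.15%). The strongest summit, at 2137958, ranked 24 in replicate 1, 39 in replicate 2 and 69 in replicate 3, and 40 in the pooled list with a signal of 984. It lay in the 5′ UTR, 413 bp downstream of the distal start site. The second, at 2137302, ranked 77, 63 and 137 in the replicates and 112 in the pool (signal 747). It lay in an intron, 447 bp upstream of the nearest of the gene's start sites. These 2 summits were among the 140 strongest of every replicate.

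The remaining ph-p summits were deeper in the gene and varied more between replicates. The intron summit at 2135371, 1251 bp downstream of the nearest start, ranked 130, 475 and 993 in replicates 1, 2 and 3 (pooled rank 337, signal 470.1). The intron summit at 2134462, 2160 bp downstream, ranked 1480, 3582 and 1462 (pooled rank 1887, signal 194). Among the thresholded ph-p summits the pooled signal was thus lower the deeper the summit lay in the gene. The candidate closest to a start, 39 bp downstream of the nearest, was weak: it had rank 11087 in the pool and 13964 and 8998 in replicates 1 and 2, with no summit within 100 bp in replicate 3. Among all thresholded summits of promoter class (within 500 bp of any annotated start) the median distance to the nearest start was 114 bp, and 6.44% lay more than 400 bp away, as both promoter summits of ph-p did.

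ph-d, the distal copy, encodes the related Polyhomeotic protein (FBgn0004860; X, 2115727 to 2123286, minus strand). Its 1 thresholded summit, at 2124163, ranked 76, 112 and 140 in replicates 1, 2 and 3 and 99 in the pool, with a signal of 763. It was intergenic, 877 bp upstream of the ph-d start and between the tandem genes. The start site itself had only a weak candidate 56 bp downstream, ranked 14884 in the pool and 24555 in replicate 1, with none within 100 bp in replicates 2 and 3. A further candidate in the same called interval, 1080 bp upstream, ranked 1983 in replicate 1 and 9605 in the pool and was not found in the other replicates. In both ph genes the candidates closest to a start were weak and the strongest summits lay farther away.

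**Figure D2:**
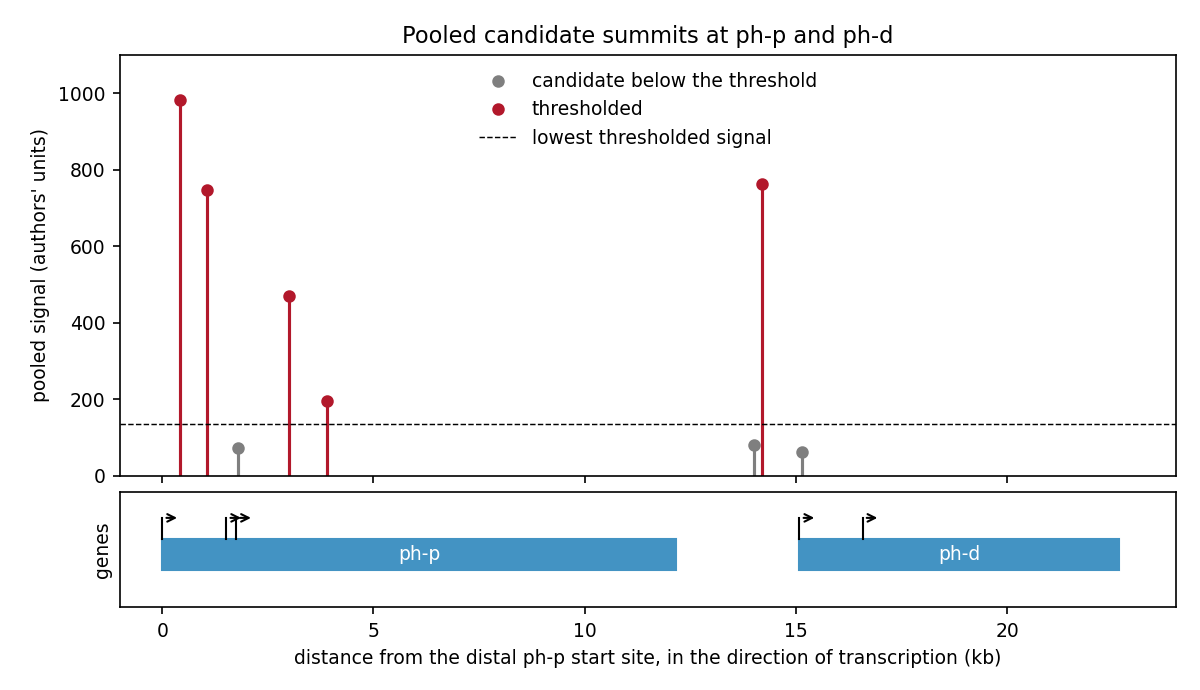
Pooled signal (authors' units) of the candidate summits at ph-p and ph-d against the distance from the distal ph-p start site in kb, in the direction of transcription, with gene bodies as bars and start sites as arrows. The 4 thresholded ph-p summits sit in the first part of that gene with signals from 984 down to 194, and the ph-d summit (763) sits between the genes.

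The 5 ph summits spanned 13796 bp, with neighbouring summits 656, 1931, 909 and 10299 bp apart. Stretches of this density also lay elsewhere: 205 of the 3816 thresholded summits (5.37%) opened a stretch of the same length with at least 5 thresholded summits. Overlapping stretches can each be counted, so 205 is not a number of separate clusters. In replicate 3 each of the 4 strongest of the 5 ranked below its position in replicates 1 and 2.

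The strongest ph-p summit lay in sequence related to a stretch beside the ph-d summit. Within the 457 bp around the ph-p summit, 330 aligned columns matched the stretch upstream of ph-d with 76.1% identity (local alignment score 158). The ph-p summit aligned to a position 103 bp from the pooled ph-d summit. That pooled summit, at 2124163, was just outside the aligned part, which ran from 2124170 to 2124478. The ph-d summit of replicate 1, at 2124124, was also outside it, while those of replicates 2 and 3, at 2124209 and 2124218, were inside. When the 457 bp windows of the 8 thresholded member summits were aligned pairwise, this pair scored 101, and the others scored 13 to 37. The 30 bases of highest identity show the duplication, with capitals for the bases shared by both copies, again on the minus strand.
ph-p copy, 5′ UTR, chrX:2138010-2138039: AATGAAAAATGAAATGaCAAAGACAGGCAC
ph-d copy, intergenic, chrX:2124315-2124344: AATGAAAAATGAAATGcCAAAGACAGGCAC

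The ph-p summit at 2137302 had a closer copy without a peak beside it. Of its window 195 columns aligned to X, 2123508 to 2123696, upstream of the ph-d start, with 90.3% identity (score 154), and no pooled candidate lay within 100 bp of that copy. The summit position itself was outside the aligned part, which ended at 2137264. The windows of the ph-p summits at 2135371 and 2134462 aligned to the ph-d stretch with scores of 25 and 20. Reads from duplicated sequence can be misplaced, so words of 36 bases were counted in the 6 arms: 29 of 422 (6.87%) in the window of that summit occurred more than once, and 0 of 422 in the windows of each of the other 7 thresholded member summits. The sources used here state neither the read length nor how reads with several matches were placed.

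Among the other PRC1 genes, Psc had the only thresholded summit. Psc encodes a RING finger protein that compacts chromatin (FBgn0005624; 2R, 12965997 to 12980994, minus strand). Its intron summit at 12975603, 5055 bp downstream of the nearest start, ranked 2441, 1300 and 5640 in replicates 1, 2 and 3 and 1660 in the pool (signal 208), so in replicate 3 it was outside the 3816 strongest. The Psc start site fell just short of the threshold: the candidate 27 bp upstream of a start had a pooled signal of 131, against 135 for the weakest thresholded peak, and pooled rank 3979. It ranked 1371 in replicate 2 and 8220 in replicate 3, and replicate 1 had none within 100 bp. With 7 candidates Psc held more than any other member, and the other 5 ranked from 11349 to 22302 in the pool.

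Pc, Sce and Scm had no thresholded summit. Pc encodes the chromodomain protein that binds methylated histone H3 (FBgn0003042; 3L, 21306138 to 21318020). Its 2 candidates, 1 in a coding exon of Pc and 1 in a 5′ UTR of the neighbour Rab26, ranked 26548 and 19969 in the pool. Sce encodes the catalytic RING protein that ubiquitylates histone H2A (FBgn0003330; 3R, 27680431 to 27682029). It had no pooled candidate in its window of 3599 bp, and a single one in the replicate lists, ranked 25239 in replicate 2. Among the 5157 protein-coding genes with a window no longer than that, 47.5% had a pooled candidate, so its lack was common for short genes. Scm encodes a SAM domain protein that associates with PRC1 (FBgn0003334; 3R, 9633359 to 9637611). The candidate 113 bp upstream of its start, where the hormone gene Dh44 also has a start within 500 bp, ranked 11946 in the pool and 4384 in replicate 2 and was not found in the other 2 replicates.

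Of the PRC2 genes, E(z) carried a strong summit. E(z) encodes the histone methyltransferase (FBgn0000629; 3L, 10634575 to 10638130, minus strand). The summit at 10638066, in the 5′ UTR 64 bp downstream of the distal start, ranked 229, 193 and 435 in replicates 1, 2 and 3 and 243 in the pool, with a signal of 538. It was the only candidate in the E(z) window in any of the 4 candidate lists. A start of Cnep1r2 also lay within 500 bp, so the summit cannot be given to E(z) alone.

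Su(z)12 and esc differed from E(z). Su(z)12 encodes a zinc finger subunit of PRC2 (FBgn0020887; 3L, 19918242 to 19923462, minus strand). Its thresholded summit at 19925029 ranked 3492, 4844 and 1350 in replicates 1, 2 and 3 and 2557 in the pool (signal 165). It was 1567 bp upstream of Su(z)12 but 86 bp from a start of Grasp65, which encodes a Golgi protein, and lay within that gene. At the Su(z)12 start, a candidate 152 bp upstream stayed below the threshold with a signal of 119 (rank 4729 in the pool, 5949 in replicate 1, 5296 in replicate 3 and none in replicate 2). A start of Pfdn6, a prefoldin subunit gene, was closer to it, at 57 bp. esc encodes the WD40 subunit that binds methylated histone H3 (FBgn0000588; 2L, 11827204 to 11829405). Its 1 candidate, in a coding exon and also within Pde1c, ranked 28888 in the pool and was found in replicate 3 only (rank 9977).

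pho, the gene for the DNA-binding zinc finger protein Pho (FBgn0002521; chromosome 4, 1172469 to 1181628, minus strand), had no pooled candidate in a window of 11160 bp. The replicate lists held 0, 2 and 1 candidates there, the best ranked 21261 in replicate 2 and 29830 in replicate 3. Of the 80 protein-coding genes on chromosome 4, 61.3% had a pooled candidate and 22.5% a thresholded summit in their windows.

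**Figure D3:**
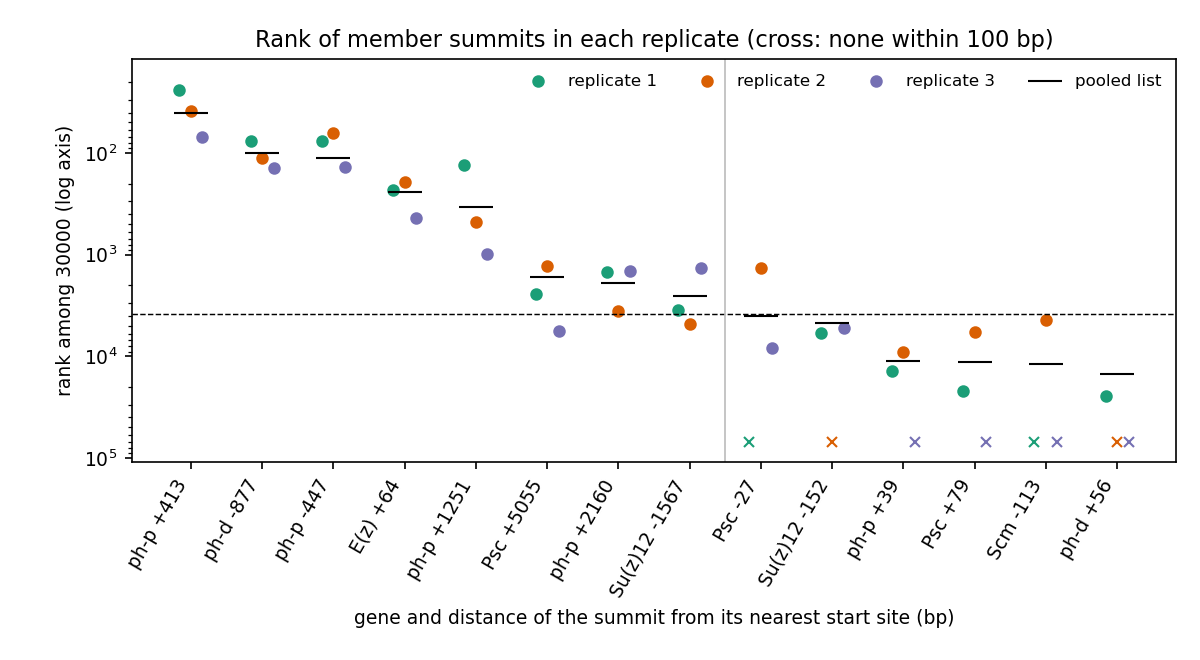
Rank among 30000 candidates (log axis, strongest at the top) in replicates 1, 2 and 3 (points) and in the pool (bars) for the 8 thresholded member summits, left of the vertical line, and the 6 weaker candidates within 500 bp of a member's start, right of it. Crosses mark replicates with no summit within 100 bp, and the dashed line is rank 3816. All 24 thresholded values are present, while each of the weaker candidates is missing from at least 1 replicate.

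Taking each replicate's own 3816 strongest peaks in place of the thresholded list gave 9, 8 and 7 summits in the members' windows for replicates 1, 2 and 3, in 5, 4 and 4 genes. All of these but 2 matched a thresholded summit. The exceptions were the ph-d candidate 1045 bp upstream of the start in replicate 1 (rank 1983) and the Psc start-site candidate in replicate 2 (rank 1371). ph-p, ph-d and E(z) were present in all 3 replicates.

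The thresholded member summits lay in AT-rich DNA. The median GC content of the 101 bp around them was 29.7% (range 15.8 to 50.5, 8 summits), against 36.6% for all thresholded summits, and 48.5% (25.7 to 59.4) for the 15 weaker member candidates, against 42.6% for all other candidates. The median over all thresholded summits was thus also lower than that over the other candidates. The ph-d summit was lowest among members at 15.8%, a value as low in only 32 of the 3816 thresholded summits (0.839%). Its longest A and T run within the 101 bp, 60 bases, is the capital stretch printed above. That run reached the edge of the 101 bp, so its full length is not given. Both ph-d values belong to the 101 bp around the pooled position. The summits of replicates 1, 2 and 3 lay at -39, 46 and 55 bp from that position. No thresholded summit had a longer run within its own 101 bp. The other 7 had runs of 7 to 12 bases, and the median over all thresholded summits was 9.00. The Su(z)12 summit at Grasp65 was the GC-richest, with 50.5%.

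**Figure D4:**
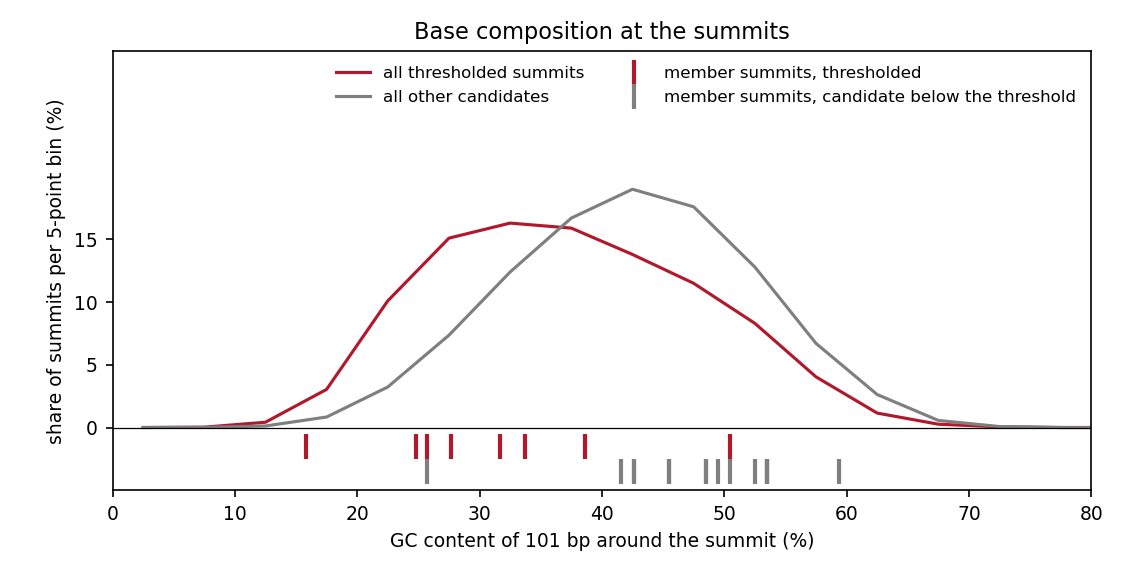
Share of summits (%) by GC content of the 101 bp around the summit (%), in bins of 5 points, for all thresholded summits (red line) and all other candidates (grey line), with a tick for each member summit below. Member ticks of thresholded summits run from 15.8 to 50.5% with a median of 29.7%, and those of weaker candidates from 25.7 to 59.4% with a median of 48.5%.

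Words bound by proteins that act at Polycomb response elements, and words of other DNA-binding proteins, were searched on both strands in the same 101 bp. The Trl product (the GAGA factor) binds the word GAGAG, which was in 0 of the 8 thresholded member summits and in 13.5% of all thresholded summits. GCCAT, the core word of Pho, was in 0 of 8 and in 14.6%. TGAGTG, a Zeste word, was in 1 of 8, the strongest ph-p summit, and in 3.96%. Among the 15 weaker member candidates, GAGAG was in 5 (in 12.8% of all other candidates) and GCCAT in 3 (19.2%). The GAGAG matches were at the start of ph-d, at 3 Psc candidates, of which 2 were at its start, and at the Pc candidate in Rab26. TATCGATA (DREF), GGTCACACT (M1BP) and CACGTG (E-box) were in none of the member summits and in 1.39%, 0.760% and 1.10% of all thresholded summits. None of the words contains another, and with 8 summits a count of 0 does not set the members apart from these shares.

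Of 22 other Polycomb group genes, 12 (54.5%) had a thresholded summit in the window, against 5 of the 10 members (50.0%) and 24.6% of all protein-coding genes. Within 500 bp of a start the counts were 8 of 22 (36.4%), 2 of 10 (20.0%) and 17.0%, and the differences between the lists were not tested. Their windows were longer, with a median of 8808 bp against 4166 bp for all protein-coding genes and 8390.5 bp for the 10 members. Of the 12, phol, calypso, RYBP and HDAC1 counted only through a summit upstream, over 500 bp from their own starts. For phol, calypso and RYBP it lay within 500 bp of starts of other genes, and for HDAC1 it was of intron class. The calypso summit (signal 137) ranked 15306 and 3443 in replicates 1 and 3, with none within 100 bp in replicate 2. By start-site signal the 8 were cg (signal 287), which encodes a zinc finger protein and shares its summit with mRpS16, Kdm2 (209.9), a histone demethylase gene, Jarid2 (185), a PRC2 cofactor gene whose summit is shared with Uch-L5, lolal (169), a BTB domain protein gene, Su(z)2 (152), the Psc paralogue, jing (149.7), Sfmbt (148), the gene for the partner of Pho, whose summit also lies within 500 bp of starts of CG43925 and CG5439, and corto (144). All were below the E(z) start-site signal of 538. Not all recurred: replicate 1 had no summit within 100 bp of those of Su(z)2, jing and Sfmbt, and replicate 3 had none at corto. A list of 9 genes for proteins that bind Polycomb response elements left out the member pho, which had no candidate. Of these 9, 7 had a thresholded summit in the window, against 24.6% of all protein-coding genes. At a start 5 of 9 had one, against 17.0%: cg and lolal, which are in both lists, Trl (230.1), psq (170.1) and Dsp1 (166). Like Trl, psq encodes a BTB domain protein. Dsp1 is an HMG box protein gene, and its summit is shared with CG9921. phol is also in both lists and counts through a summit 1500 bp upstream. The median window of this list was 9013 bp, and that of psq was 61393 bp. The Trl start-site summit had none within 100 bp in replicate 1, and that of Dsp1 ranked 11346 and 14856 in replicates 1 and 3. The 2 genes of that list without a thresholded summit in their windows were z and Spps.

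The next 3 summits were chosen after their values were seen. phol, the paralogue of pho, had a summit 1500 bp upstream with a signal of 931 and rank 51 in the pool, and ranks 60, 51 and 56 in replicates 1, 2 and 3, whereas pho had none. That summit lay within 500 bp of starts of CG3437 and CG3552 and not of phol. Kdm2 held 7 thresholded summits, and the strongest, in an intron, had a signal of 757 and ranks 277, 70 and 58. Trl also held 7, the strongest of which, in an intron, had a signal of 1852 and rank 5 in the pool and ranks 4, 5 and 5.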

How the data were processed

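Peak lists of 3 biological replicates and of their pool were used as deposited on dm6. Per the file lists deposited with the labels, candidates are peaks and background given as input to a reproducibility step and called against a control, and the thresholded list derives from them. Each deposited peak has a signal value of unstated unit, a −log10 q-value and a summit offset in bp. The q-values were only described: as deposited by the authors they reached at least 2.70 on the −log10 scale in thresholded peaks. The sources used here name no aligner, peak caller or version. A control experiment named in the labels was not analysed here. The dm3 lists were not used.

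Positions count from 1. Gene models were from Ensembl release 115 (BDGP6, same coordinates), and 1 symbol, calypso, was matched through a RefSeq synonym to caly. A gene window was its body and 2 kb upstream. Shared summits lay within 100 bp, and the best-ranked was taken. Promoter meant 500 bp from any annotated start. Local alignments (Biopython 1.88) scored 1 per match, -1 per mismatch, -2 and -1 for opening and extending a gap. Python 3.11.15, pandas 2.3.3, NumPy 2.4.6 and SciPy 1.17.1 were used, and window counts and summit matching were tested on simulated data.

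All comparisons are descriptions without a test: there is 1 group, and the members and lists were chosen with earlier results of these data known. The rule for named genes took all 10 members, genes with a start within 500 bp of or holding their thresholded summits, and list genes with a start-site summit by signal (at most 8 and 5). Some genes are outside it and were named after their values were seen. They are neighbours of weaker member candidates (Rab26, Dh44, Pfdn6, Pde1c), z, Spps, calypso, RYBP, HDAC1 and the genes near the phol summit or near summits beyond 2 kb. Alternatives were other upstream lengths, stricter thresholds, start-site and summit distances, motif widths, each replicate's own list and leaving out each replicate.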

Additional observations from a re-analysis of the deposited data

How the results depend on the processing

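The results counted below were recomputed under each alternative. Using gene bodies alone left 3 members with a thresholded summit, since those of ph-d and Su(z)12 lie upstream. A start-site distance of 250 bp left 1 member, E(z), with a start-site summit, and 2 thresholded member summits of promoter class. At 500 bp 4 of the 8 were of that class, as were 57.0% of all thresholded summits. No share over all protein-coding genes is given here for gene bodies alone or for 250 bp. Leaving out ph-p and ph-d, an alternative chosen after seeing the data, left 3 members, 3 summits and 0.436 thresholded summits per 10 kb. GAGAG and GCCAT were each in 2 of 8 thresholded member summits within 100 bp, where they were in 27.6% and 26.8% of all thresholded summits, and TGAGTG was in 0 within 25 bp. With any replicate left out the number of member summits found in every remaining one was 8, and it was 6 among the 3816 strongest of each replicate or within 50 bp. The other alternatives moved no count by over 1.5 times. Su(z)12 is counted only through the Grasp65 summit: counting summits by nearest start, also chosen afterwards, left 4 members and 7 summits. No paired analysis was possible because there is 1 group. Read depth is unknown and limits what the weaker candidates can show.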

Other observations

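Beyond the 2 kb limit, thresholded summits lay upstream of 3 members within 5 kb of a start. The strongest was 4227 bp upstream of Psc at 12985221, near a start of lncRNA:CR44339, with a signal of 863 and rank 69 in the pool, above every candidate in the Psc window. The others were 3941 bp upstream of Pc, nearest to Rab26 (signal 192, rank 1937), and 3539 bp upstream of ph-p, nearest to D2hgdh (signal 161, rank 2669).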
